A study of Mus musculus with 6 samples.

Results

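The 4 ErbB receptor tyrosine kinases, Egfr, Erbb2, Erbb3 and Erbb4, and 6 ligands of the epidermal growth factor (EGF) family, Egf, Tgfa, Hbegf, Areg, Ereg and Btc, were followed in whole mouse pancreas at postnatal day 7. The members were the rows that carried these 10 gene symbols, out of 23337 symbols listed for each library, and all 10 were present in all 6 libraries. Of these, 8 passed the filter on low counts, and Areg and Ereg had 0 counts in every library. Mutant mice were Ptf1a cre/+ and carried the transgene CAG-loxP-STOP-loxP-Prox1-LacZ, from which Cre removes a stop signal. Control mice were Ptf1a cre/+ without this transgene, so both groups carried Cre at 1 allele of Ptf1a, a gene of pancreas progenitors and acinar cells. All mice were of the strain NMRI, and each group had 3 RNA-seq libraries. The series text has pooled controls and single mutant organs, but the protocol for RNA names single organs in both groups, so an effect of pooling and one of genotype cannot be told apart.

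An EGF-family ligand is made as a membrane-bound precursor, is cut loose by a metalloprotease, and binds an ErbB receptor, which then pairs with a second one and activates the Ras-MAPK and PI3K-Akt pathways. Erbb2 has no known ligand of its own, and the kinase domain of Erbb3 is nearly inactive, so both act mainly in pairs with other ErbB receptors. In the adult mouse pancreas, Egfr and its ligands are known to drive acinar-to-ductal metaplasia, the conversion of enzyme-secreting acinar cells into duct-like cells.

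Prox1, the gene of the transgene, had 268, 270 and 310 counts in the mutant libraries, against 72, 71 and 95 counts in the control libraries, and its log2 fold change was 1.67 ± 0.15 (SE, n = 3 per group; edgeR adjusted p = 0.000239). Total counts lay between 7729161 and 9957737 in mutants and between 7304727 and 10773223 in controls. Levels are given in CPM, counts scaled to a common library size with edgeR's TMM factors, and 1 CPM stood for between 6.65 and 10.5 counts. Control library 1 was the only library with more than a few counts of Xist, an RNA made in female cells, at 7110 counts against at most 4 in each of the other libraries. Without control 1, the log2 fold change was -0.74 for Egf and -0.72 for Erbb3 (edgeR adjusted p = 0.0251 and 0.0331), beside -0.73 and -0.66 with it. Among 13017 genes tested with edgeR's quasi-likelihood test, 268 changed (2.06%), of which 71 were higher (0.545%) and 197 lower (1.51%) in mutants at a Benjamini-Hochberg adjusted p under 0.05.

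Egf and Erbb3 fell in mutant pancreas, to 0.604 and 0.634 of the control level, and the other 6 tested members did not pass the test. Thus 2 of 8 tested members were lower and 0 were higher, where 1.51% and 0.545% of all tested genes were, or 2.06% in either direction. At an unadjusted p under 0.05 the counts were 3 lower and 0 higher, where 7.36% of all tested genes were lower and 5.41% higher. DESeq2, as a second tool, called 2 lower and 0 higher, where it called 1.58% of 15034 genes lower and 0.559% higher. The groups did not overlap, with mutants below controls, for 3 of the 8 members, namely Egf, Erbb3 and Tgfa, against 9.86% of all tested genes. In bulk tissue, fewer cells of a type and less RNA per cell cannot be told apart, and this holds for every level given here.

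**Figure D1:**
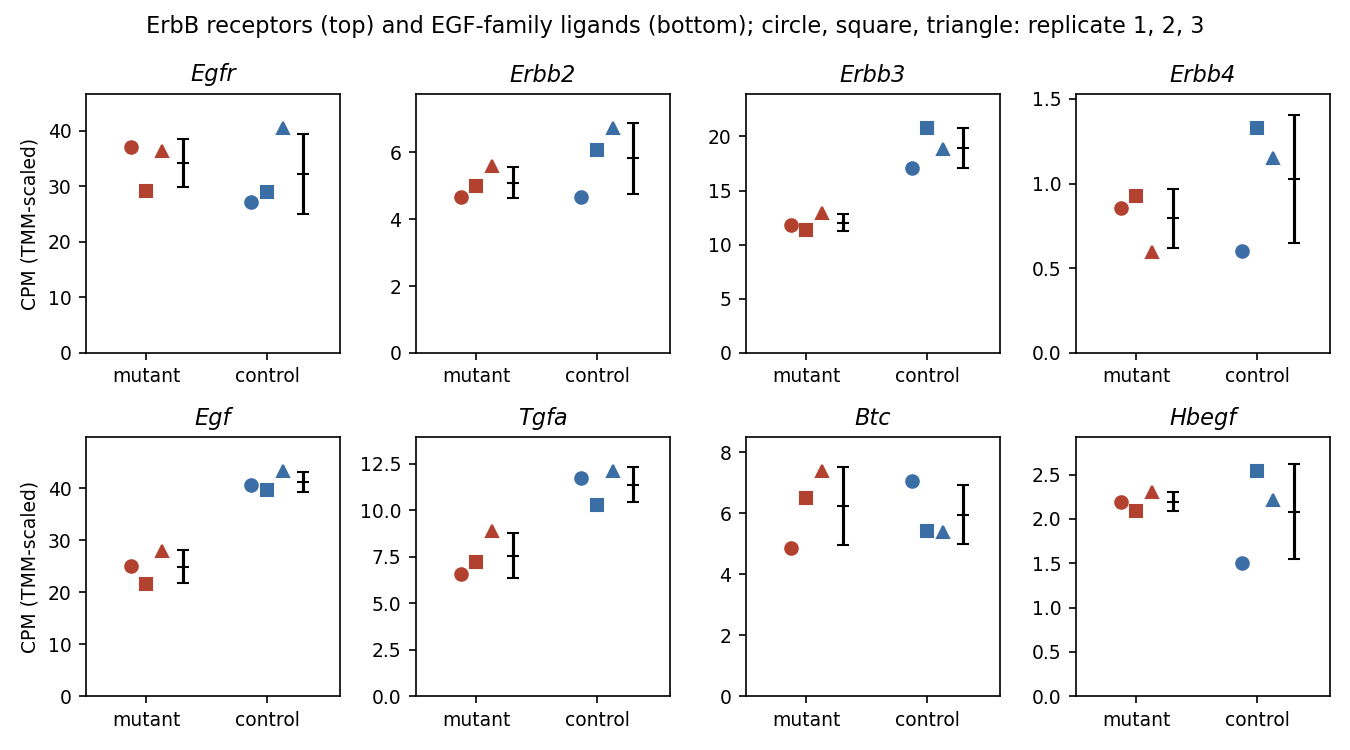
TMM-scaled CPM (vertical axes, each from 0) of the 8 detected members in the mutant libraries (red) and the control libraries (blue), with replicates 1, 2 and 3 as circle, square and triangle and the mean ± SD (n = 3) in black. The groups are apart for Egf, Erbb3 and Tgfa and overlap for the other members.

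**Figure D2:**
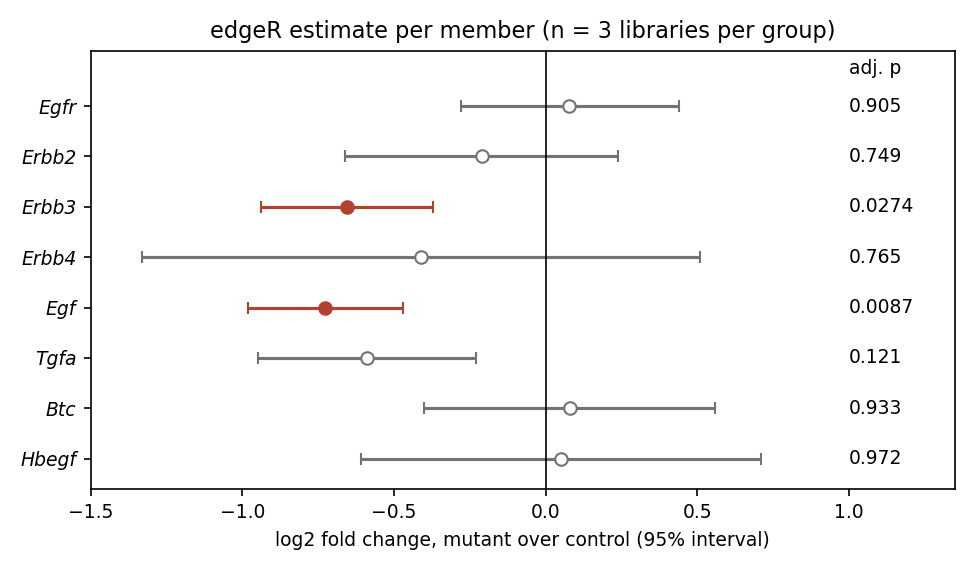
Log2 fold change of mutant over control for the 8 tested members, with its 95% interval and the adjusted p from edgeR at the right. The filled points, Egf and Erbb3, are the members past the threshold.

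Egf encodes the founding ligand of the family, made as a long membrane-bound precursor. It lies at chr3:129677565-129755316 on the minus strand of mm10, in which GENCODE M21 annotates it as protein-coding. Egf had 25.1, 21.6 and 27.9 CPM in the mutant libraries, from 264, 186 and 279 counts, against 40.6, 39.7 and 43.3 CPM in the control libraries, from 270, 359 and 451 counts. Every mutant library lay well below every control library. The SD of the controls was 4.64% of their mean, where counting alone gives 4.71% to 7.33% for a single library of either group. The mean was 24.9 ± 3.14 CPM in mutants and 41.2 ± 1.91 CPM in controls (SD, n = 3 each). The log2 fold change was -0.73 ± 0.11 (SE; 95% interval -0.98 to -0.47; edgeR adjusted p = 0.0087). Its adjusted p was 0.0526 without control 3 and 0.0503 without mutant 1, with log2 fold changes of -0.69 and -0.73, and it passed the threshold in 13 of 15 alternatives (adjusted p 0.000305 to 0.0526). Of the exon bases of Egf, 9.82% overlap antisense genes, of which 6330410L21Rik had at most 2 counts in a library. Gm42697, the other, was not among the symbols counted, so its level could not be looked up.

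Tgfa encodes transforming growth factor alpha, a second ligand of Egfr, at chr6:86195223-86275719 on the plus strand. It had 6.57, 7.19 and 8.88 CPM in the mutant libraries, against 11.7, 10.3 and 12.1 CPM in the control libraries. The highest mutant library lay below the lowest control library. Its log2 fold change was -0.59 ± 0.16 (SE; 95% interval -0.95 to -0.23), short of the threshold at an edgeR adjusted p of 0.121 and an unadjusted p of 0.00463. In 15 alternatives its log2 fold change stayed between -0.73 and -0.43, and its adjusted p lay between 0.111 and 0.381.

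Promoter windows are printed for Egf and Tgfa, the ligands whose groups did not overlap, and for Egfr, their receptor, whose groups did. They run from 250 bases before to 50 bases after the annotated start, come from RefSeq on GRCm38.p6 and are written 5′ to 3′ on the strand of the gene, and 7 of the 10 members had a window. They lie at chr3:129755273-129755572 (minus strand), chr6:86194972-86195271 (plus strand) and chr11:16751953-16752252 (plus strand). Capitals mark matches on either strand to the E-box CANNTG, bound by factors of the Ptf1a class, the RBPJ core TTCCCA, the nuclear receptor half-site AAGGTCA and the AP-1 site TGANTCA.
Egf: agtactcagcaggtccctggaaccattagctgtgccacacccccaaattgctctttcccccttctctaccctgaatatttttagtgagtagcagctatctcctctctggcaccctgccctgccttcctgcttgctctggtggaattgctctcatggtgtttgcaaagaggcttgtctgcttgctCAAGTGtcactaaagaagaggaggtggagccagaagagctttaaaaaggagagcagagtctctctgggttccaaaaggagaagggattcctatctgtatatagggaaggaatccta
Tgfa: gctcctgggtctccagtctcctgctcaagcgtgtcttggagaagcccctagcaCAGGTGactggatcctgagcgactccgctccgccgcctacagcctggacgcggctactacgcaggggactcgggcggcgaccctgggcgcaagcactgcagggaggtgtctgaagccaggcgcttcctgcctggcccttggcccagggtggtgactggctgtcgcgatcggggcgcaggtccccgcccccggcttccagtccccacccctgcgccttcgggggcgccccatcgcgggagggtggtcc
Egfr: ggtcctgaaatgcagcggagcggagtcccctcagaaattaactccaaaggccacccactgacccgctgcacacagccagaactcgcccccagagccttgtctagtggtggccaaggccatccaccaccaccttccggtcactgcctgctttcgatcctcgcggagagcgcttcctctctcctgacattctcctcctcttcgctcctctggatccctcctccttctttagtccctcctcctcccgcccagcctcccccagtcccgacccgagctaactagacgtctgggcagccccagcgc
The Egf window held 1 E-box, CAAGTG, which starts 66 bases before the gene start, and the Tgfa window held 1, CAGGTG, which starts 197 bases before it. The Egfr window held 0 E-boxes. Among the windows not printed, that of Btc held 4 E-boxes, that of Areg 2, that of Erbb2 1 and that of Erbb4 0. The groups overlapped for Btc, Erbb2 and Erbb4, and Areg had 0 counts in every library. The other 3 motifs had 0 matches in all 3 printed windows. Among 32851 windows of the same length, 72.3% held an E-box, 25.6% the RBPJ core, 4.72% the half-site and 7.81% the AP-1 site, so a single E-box is common among promoters.

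Btc encodes betacellulin, which binds Egfr and Erbb4, and lies on chromosome 5. It had 4.86, 6.5 and 7.39 CPM in the mutant libraries, against 7.07, 5.41 and 5.38 CPM in the control libraries. The groups overlapped, with mutant 1 lowest and mutant 3 highest of all 6 libraries. The log2 fold change was 0.08 ± 0.22 (SE), with a 95% interval of -0.40 to 0.56 (edgeR adjusted p = 0.933), an interval that does not reach the fitted value of Egf.

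Hbegf encodes heparin-binding EGF-like growth factor, a ligand of Egfr and Erbb4. It had 2.19, 2.09 and 2.30 CPM in the mutant libraries, against 1.5, 2.54 and 2.21 CPM in the control libraries. The mutant values lay inside the range of the controls, of which control 1 was the lowest. At 10 to 23 counts a library, the counting error alone was 20.9% to 31.6% of a value. The log2 fold change of 0.05 had a 95% interval of -0.61 to 0.71 (edgeR adjusted p = 0.972). This interval includes the fitted value of Tgfa, close to its lower end.

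Areg and Ereg, which encode amphiregulin and epiregulin and lie next to each other on chromosome 5, had 0 counts in all 6 libraries. A count of 0 allows up to 3 counts, which is between 0.286 and 0.348 CPM in a mutant library and between 0.288 and 0.451 CPM in a control library. Over all libraries together the limit was 0.0543 CPM, and these limits cover counting error only. Of the 50-base stretches in their transcripts, 0% and 2.26% also occur in other genes, and reads from such stretches may not have been counted.

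The other ErbB ligands were also close to absent, and none of Epgn, Nrg1, Nrg2, Nrg3 and Nrg4 passed the filter on low counts. Nrg2, a neuregulin, had the most, with 2, 4 and 2 counts in the mutant libraries, against 4, 6 and 7 counts in the control libraries. The 4 others had between 2 and 9 counts over all 6 libraries together. The neuregulins are ligands of Erbb4, and some of them also of Erbb3. The 4 ligands that passed the filter are all ligands of Egfr, and of these Btc and Hbegf also bind Erbb4.

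Erbb3 encodes a receptor of neuregulins that has little kinase activity, and lies at chr10:128567523-128589652 on the minus strand. It had 11.8, 11.4 and 12.9 CPM in the mutant libraries, from 124, 98 and 129 counts, against 17.1, 20.8 and 18.8 CPM in the control libraries, from 114, 188 and 196 counts. The 3 mutant values all lay below the controls. The SD of the mutants was 6.45% of their mean, where counting alone gives 7.14% to 10.1% for a single library of either group. The mean was 12 ± 0.775 CPM in mutants and 18.9 ± 1.82 CPM in controls (SD, n = 3 each). The log2 fold change was -0.66 ± 0.13 (SE; 95% interval -0.94 to -0.37; edgeR adjusted p = 0.0274). The call was lost without control 2 (edgeR adjusted p = 0.144), control 3 (0.0992), mutant 1 (0.125), mutant 2 (0.056) or mutant 3 (0.0721). It was also lost with library totals alone as the scaling (edgeR adjusted p = 0.0903) and with the replicate number as a block (0.075). It held in 8 of 15 alternatives, and the log2 fold change lay between -0.72 and -0.49 in all 15.

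Egfr, the receptor shared by the detected ligands, lies at chr11:16752203-16918158 on the plus strand. It had 37.0, 29.1 and 36.3 CPM in the mutant libraries, against 27.2, 28.9 and 40.5 CPM in the control libraries. Control 3 was the highest and control 1 the lowest library, so that the controls spanned the mutants. The coefficient of variation was 12.8% in mutants and 22.4% in controls, where counting alone gives 4.87% to 7.43% for a single library. The log2 fold change was 0.08 ± 0.16 (SE; edgeR adjusted p = 0.905), with a 95% interval of -0.28 to 0.44. Without control 1 the log2 fold change was -0.02.

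Erbb2, the partner receptor without a ligand of its own, is also on chromosome 11. It had 4.67, 4.99 and 5.59 CPM in the mutant libraries, against 4.66, 6.08 and 6.73 CPM in the control libraries. The groups overlapped only through control 1, and the log2 fold change of -0.21 had a 95% interval of -0.66 to 0.24 (edgeR adjusted p = 0.749). Erbb4, a further neuregulin receptor on chromosome 1, was near the limit of detection with 9, 8 and 6 counts in the mutant libraries, against 4, 12 and 12 counts in the control libraries. Its log2 fold change of -0.41 had a 95% interval of -1.33 to 0.51 (edgeR adjusted p = 0.765), too wide to tell a large fall from a rise.

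Levels of different genes were compared per kilobase of each gene's longest annotated coding transcript. On this scale Egf was the highest member in both groups, at 5.22 ± 0.660 CPM per kb in mutants and 8.65 ± 0.402 CPM per kb in controls (SD, n = 3 each). Egfr followed at 3.35 ± 0.429 CPM per kb in mutants and 3.16 ± 0.705 CPM per kb in controls, and the ranges of Egf and Egfr did not overlap in either group. In mutants the order went on with Btc, Erbb3, Tgfa, Erbb2, Hbegf and Erbb4, where the ranges overlapped between Btc and Erbb3, Erbb3 and Tgfa, and Erbb2 and Hbegf. In controls it went on with Erbb3, Tgfa, Btc, Erbb2, Hbegf and Erbb4, where the ranges overlapped between Egfr and Erbb3, Tgfa and Btc, and Erbb2 and Hbegf. Erbb4 was last in both groups, at 0.066 CPM per kb in mutants and 0.0853 CPM per kb in controls. The place of Egf depends on the length used, since its annotated exons span 11275 bases in all but its longest coding transcript 4761 bases. With all exon bases as the length, Egfr was first in mutants (3.02 CPM per kb, against 2.20 for Egf), and Egf first in controls (3.65 CPM per kb).

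The receptor levels per kilobase were also read as shares of their sum. Egfr made up 55.0%, 49.1% and 51.8% of the summed receptor level per kilobase in the mutant libraries, against 41.0%, 37.3% and 46.5% in the control libraries. Erbb3 made up 29.8%, 32.5% and 31.2% in the mutant libraries, against 43.9%, 45.4% and 36.7% in the control libraries. Neither share overlapped between the groups, whereas the share of Erbb2 did, at 14.1% to 17.1% in mutants and 14.3% to 15.9% in controls. Erbb3 stood at 0.541, 0.662 and 0.601 of the Egfr level in the mutant libraries, against 1.07, 1.22 and 0.790 of it in the control libraries. These shares restate the fall of Erbb3 beside Egfr and were not tested.

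The summed ligand level, of which Egf is the largest part, was not tested. It was 9.34, 9.26 and 11.3 CPM per kb in the mutant libraries, against 14.2, 13.6 and 14.6 CPM per kb in the control libraries, without overlap. Egf made up 48.9% to 56.5% of it in mutants and 60.0% to 62.4% in controls. Btc made up 18.1% to 24.4% in mutants and 12.8% to 17.3% in controls. Egf stood at 1.46, 1.59 and 1.64 times the Egfr level in the mutant libraries, against 3.20, 2.94 and 2.30 times in the control libraries. With all exon bases as the length, the share of Egf was 39.1% to 46.7% in mutants and 49.4% to 52.2% in controls.

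**Figure D3:**
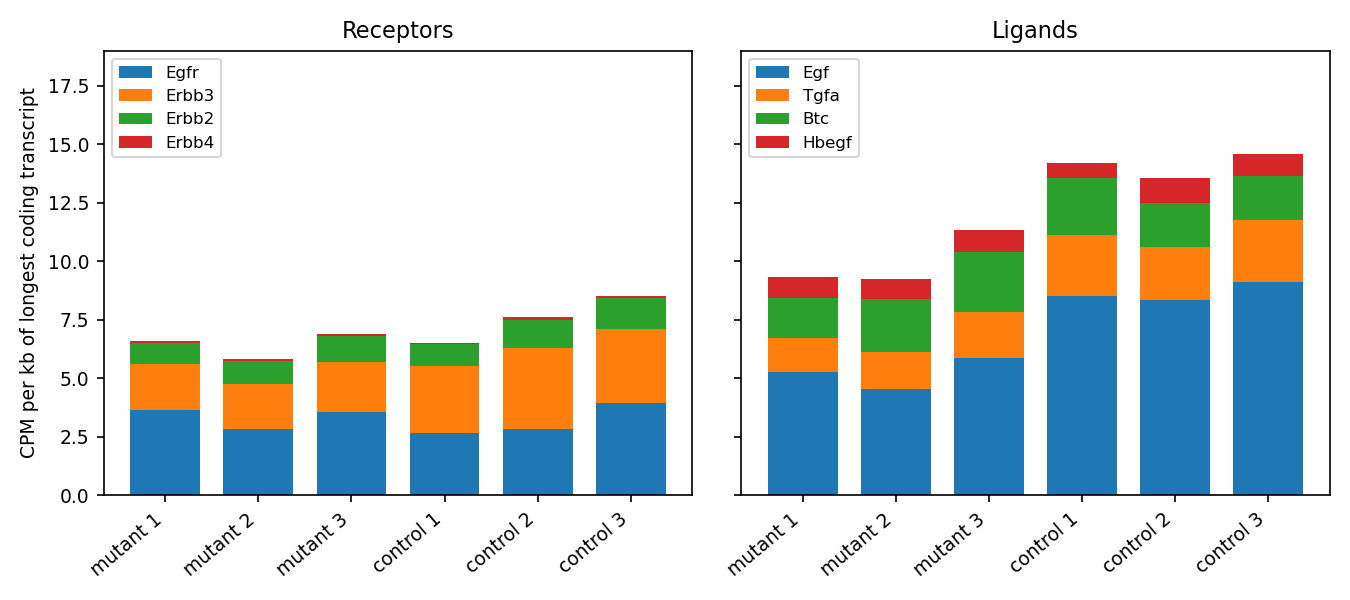
Level of each member in CPM per kb of its longest coding transcript, stacked by library, for the receptors (left) and the ligands (right), with the mutant libraries left of the control libraries. Ligand sums are 9.26 to 11.3 in mutants and 13.6 to 14.6 in controls, and receptor sums are 5.82 to 6.87 in mutants and 6.5 to 8.53 in controls.

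The genes with a mean of at least 5 CPM whose log2 CPM followed Egf most closely over the 6 libraries were Cel, the bile salt-activated lipase of acinar cells, with a Pearson correlation of 0.998, Sfxn5, a mitochondrial carrier of the sideroflexin family (0.996), and Car8, a carbonic anhydrase-related protein (0.995). Cel had 35200, 29800 and 39600 CPM in the mutant libraries, against 64600, 65100 and 68900 CPM in the control libraries, the same order of libraries within the mutants as in Egf. Cel and Car8 also fell, by log2 fold changes of -0.93 and -1.01 at edgeR adjusted p of 0.00881 and 0.0102, and Sfxn5 had -0.75 and did not pass (0.0933). For Erbb3 the closest genes were Pank4, of the pantothenate kinase family (0.997), Fbxl6, an F-box protein (0.996), and Ddb2, a DNA damage-binding protein (0.995), and none of these 3 passed the test. The 6 points share libraries and the split into groups, and 132 and 106 of 10029 genes correlated above 0.95 with Egf and with Erbb3, so these names are a description of a common pattern. Egf and Tgfa had a correlation of 0.94 and Egf and Erbb3 of 0.95 over the same libraries, while Egf and Egfr had -0.02.

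Markers of the cell types in the tissue were measured beside these changes, where 1.51% of all tested genes were lower and 0.545% higher at the adjusted threshold. Of 12 acinar markers, all above 0 in every library, 1 fell (Cel) and 0 rose, and the median log2 fold change was -0.23. Beside 9.86% of all tested genes, mutants lay below controls without overlap in 6 of these 12 markers, namely Cel, Cpa1, Pnlip, Ptf1a, Rbpjl and Gata4. Their summed level was 234000 to 291000 CPM in mutants and 294000 to 312000 CPM in controls, without overlap. The other 11 acinar markers without Cel summed to 205000 to 251000 CPM in mutants and 225000 to 247000 CPM in controls, with overlap. This second sum was taken after seeing the data. Its largest part was Ctrb1, with 147000, 122000 and 151000 CPM in the mutant libraries, against 147000, 142000 and 130000 CPM in the control libraries. The sum is therefore no measure of the less abundant acinar markers. Of 7 tested Schwann cell and nerve markers, the cells in which Erbb3 is best known, 0 changed, and their list summed to 17.1 to 22.4 CPM in mutants and 17.3 to 17.4 CPM in controls. Of 12 endocrine markers 1 fell (Nkx2-2) and 0 rose, with sums of 3330 to 3640 CPM in mutants and 3280 to 5310 CPM in controls. Fibroblast, blood endothelial and mesothelial markers had 0 changed genes of 10, 8 and 5 tested, and their sums overlapped between the groups. Of 9 macrophage markers 2 rose and 1 fell, with sums of 298 to 408 CPM in mutants and 248 to 294 CPM in controls. Of 5 tested adipocyte markers 1 fell (Fabp4, log2 fold change -0.91, edgeR adjusted p = 0.0125) and 0 rose. The list summed to 54.1 to 67.6 CPM in mutants and 81.5 to 153 CPM in controls. Fabp4 was its largest part, with 39.2, 49.8 and 43.9 CPM in the mutant libraries, against 64.8, 87.7 and 96.5 CPM in the control libraries. The other tested markers, Adipoq, Cidec, Plin1 and Pnpla2, had -3.65, -2.86, -2.57 and -0.16 on the log2 scale. None of them passed (edgeR adjusted p = 0.0855, 0.171, 0.235 and 0.826), and Adipoq was at 0 in mutants 1 and 3. Without the filter on low counts, Cfd, Retn and Lep had -4.67, -5.09 and -3.32 (edgeR adjusted p = 0.0264, 0.0275 and 0.165). The part of these cell types in the lower Egf and Erbb3 levels was not tested.

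Genes around the receptors were read from 6 further lists. Of these, 100 genes were tested and 0 passed the threshold in either direction, where 2.06% of all tested genes did. At an unadjusted p under 0.05, 11 were higher and 10 lower, or 21%, where 12.8% of all tested genes were. DESeq2 called 5 of them, with Atf3 and Cldn4 higher and Krt19, Spp1 and Tff2 lower. Of all 15034 genes that this tool tested, it called 0.559% higher and 1.58% lower. Spp1, which encodes osteopontin, and Tff2, a trefoil peptide, were named after their values were seen. The median log2 fold change of the 100 genes was 0.01, beside 0.00 for all tested genes.

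Ligand shedding and maturation genes showed 0 of 11 tested past the threshold and a median of -0.10. Rhbdf1, an inactive rhomboid that carries the sheddase Adam17 to the cell surface, had 38.2, 41.4 and 35.4 CPM in the mutant libraries, against 51.7, 48.9 and 50.7 CPM in the control libraries. The groups did not overlap, and the log2 fold change was -0.40 ± 0.10 (SE), with an edgeR adjusted p of 0.0811, above the threshold. Adam12, a metalloprotease that can cut Hbegf, had 31.3, 26.9 and 28.3 CPM in the mutant libraries, against 15.8, 22.6 and 22.4 CPM in the control libraries (log2 fold change 0.50, edgeR adjusted p = 0.145). Adam17 itself, chosen after its values were seen, had a log2 fold change of -0.02 ± 0.09 (SE).

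Receptor inhibitors and turnover genes had 0 of 18 past the threshold, with 14 positive and 4 negative fold changes and a median of 0.09. Mutants lay above controls without overlap in 5 of the 18 and below them in 0, beside 9.13% above and 9.86% below for all tested genes. Errfi1, a feedback inhibitor that binds the Egfr kinase, had 27.5, 23.6 and 28.9 CPM in the mutant libraries, against 18.8, 22.8 and 22.1 CPM in the control libraries (log2 fold change 0.32, edgeR adjusted p = 0.290). Socs5, which promotes the breakdown of Egfr, had overlapping groups and 0.33 on the log2 scale, at an edgeR adjusted p of 0.334.

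Adaptors and Ras-MAPK kinases had 0 of 18 past the threshold, with 9 positive and 9 negative fold changes and a median of -0.00. Nras, a Ras GTPase, had 0.14 on the log2 scale at an edgeR adjusted p of 0.607. In the PI3K-Akt arm 0 of 12 passed and the fold changes lay between -0.23 and 0.24. Pdpk1, the kinase that activates Akt, had 0.24, and Rptor, a subunit of the mTOR complex, had -0.23 (edgeR adjusted p = 0.304 and 0.550).

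MAPK response and feedback genes were the most spread of the lists, with 0 of 22 tested past the threshold, a median of 0.05 and fold changes between -1.16 and 1.25. Atf3, a stress-induced transcription factor, had 7.81, 5.45 and 7.39 CPM in the mutant libraries, against 1.65, 3.65 and 3.17 CPM in the control libraries. The groups did not overlap, and the log2 fold change was 1.25 ± 0.28 (SE; edgeR adjusted p = 0.0551). Ier2, an immediate early gene, had 10.9, 13.6 and 12.5 CPM in the mutant libraries, against 18.6, 16.2 and 17.7 CPM in the control libraries, and -0.51 on the log2 scale at an edgeR adjusted p of 0.0989. Dusp5, a phosphatase of nuclear ERK, and Spry4, a feedback inhibitor of the pathway, had -1.16 and -0.75 (edgeR adjusted p = 0.152 and 0.321). Dusp6 had 0.29 and Egr1 0.14 (edgeR adjusted p = 0.543 and 0.871). Dusp5, Spry4, Dusp6 and Egr1 were all chosen after their values were seen. Of the 22 genes, 12 had positive and 10 negative fold changes.

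Duct and metaplasia genes had 0 of 19 tested past the threshold and a median of -0.13. Cldn4, a tight junction gene raised in metaplasia, had 21.2, 12.2 and 15.1 CPM in the mutant libraries, against 8.27, 9.94 and 7.98 CPM in the control libraries (log2 fold change 0.89 ± 0.21 SE, edgeR adjusted p = 0.0649). Krt19, a duct keratin, had 42.4, 37.0 and 48.7 CPM in the mutant libraries, against 49.8, 74.0 and 68.2 CPM in the control libraries (log2 fold change -0.59 ± 0.16 SE, edgeR adjusted p = 0.103). Neither gene's groups overlapped, and the directions were opposite. The sum of the list was 2030 to 2330 CPM in mutants and 2520 to 2560 CPM in controls, and it was not tested. Tff2 was its largest part, with 803, 775 and 857 CPM in the mutant libraries, against 1080, 999 and 975 CPM in the control libraries. The sum is therefore no measure of the list as a whole. Of the 19 tested genes, mutants lay above controls without overlap in 4 and below them in 5. Among all tested genes, 9.13% lay above and 9.86% below. Mmp7, which was too low for the test, also lay above.

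**Figure D4:**
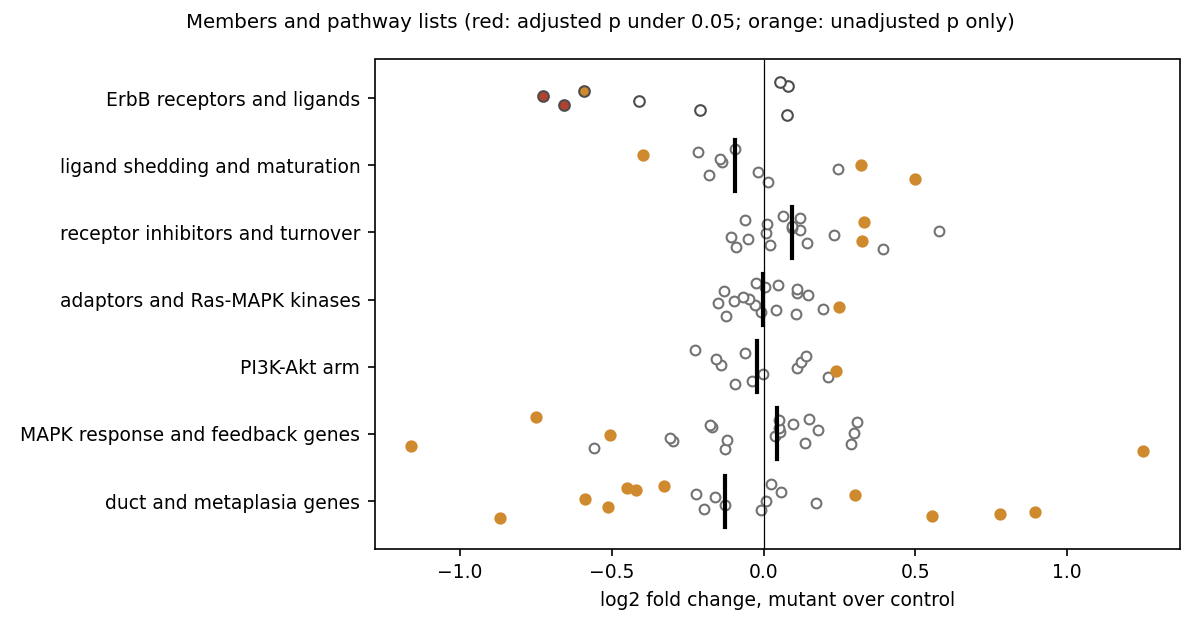
Log2 fold change of mutant over control for the 8 tested members and for each tested gene of 6 pathway lists, with black bars at the list medians. Red points pass the adjusted threshold (Egf and Erbb3), orange points have an unadjusted p under 0.05 without passing it, and open points have neither.

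The fold changes of Egf, Erbb3 and Tgfa kept their sign in all 15 alternatives. Library totals alone as the scaling moved the median of all genes to 0.17 on the log2 scale and gave -0.57 for Egf, -0.49 for Erbb3 and -0.43 for Tgfa.

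**Figure D5:**
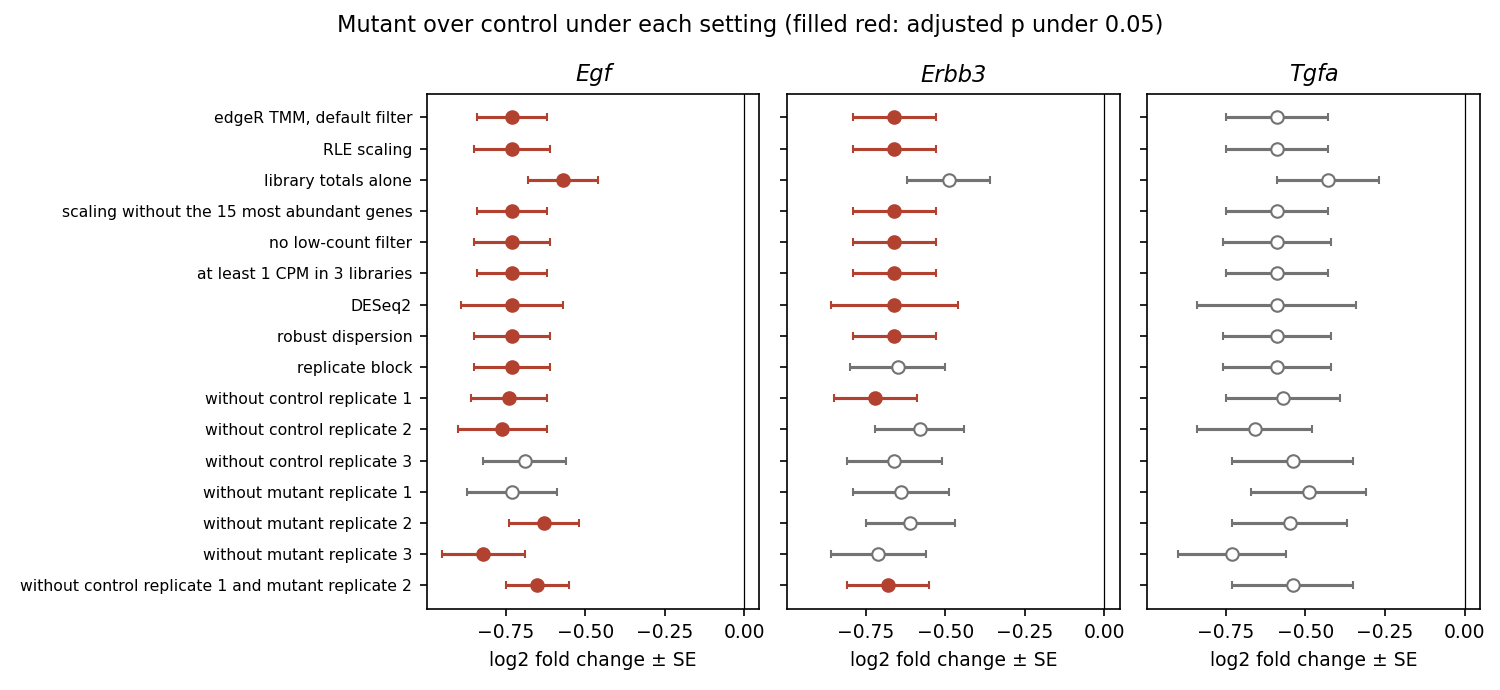
Log2 fold change ± SE of mutant over control for Egf, Erbb3 and Tgfa (panels) under the main setting (top) and each alternative. Filled red points have an adjusted p under 0.05, which holds for Egf in 13, for Erbb3 in 8 and for Tgfa in 0 of the 15 alternatives, and every point is below 0.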

How the data were processed

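RNA-seq of whole pancreas was available for 3 mutant and 3 control libraries, grouped and numbered by their titles. The authors deposited whole-number counts per gene symbol. The submitters' processing notes name the build mm10 and the tools HTSeq 0.6.1p1, STAR, DESeq2 and cutadapt 1.13, with no role or order, and strand setting and annotation were not given in the sources used here. The counts were tested over all genes with edgeR 4.0.16 in R 4.3.3 (quasi-likelihood test, TMM scaling, filterByExpr at its defaults, no covariate, Benjamini-Hochberg adjustment), and the scripts were tested on simulated data. Fold changes are mutant over control, and each standard error is the size of the fold change on the log2 scale over the root of F. Intervals use the t distribution of the same fit. Log2 CPM had a prior count of 2.

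The members and lists were chosen with earlier results of these data known. All members were named, with the 2 genes of smallest p in each pathway list (1 such gene is not reported here) and the 3 genes most correlated with each called member. Hras and Adgre1 were matched by the older symbols Hras1 and Emr1. Coordinates, exon overlap and shared stretches of 50 bases were taken from GENCODE M21, whose assembly GRCm38 is the same as mm10.

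Nothing says how samples relate to litters, and p-values measure the spread between these samples. Libraries of a group differed by a chi-square of 5.83 to 20.5 per degree of freedom and were counted separately. Alternatives were other scalings and filters, DESeq2 1.42.0, a robust dispersion, the replicate number as a block and leaving out libraries.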

Additional observations from a re-analysis of the deposited data

How the results depend on the processing

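The count of members higher in mutants was 0 in all 15 alternatives. The count of members lower in mutants was 2, but 1 with library totals alone and 0 to 2 when 1 library was left out. Numbers of called genes moved more: 190 higher and 130 lower with library totals alone, 27 to 99 higher and 98 to 202 lower with 1 library left out, and 157 higher and 327 lower without control 1 and mutant 2, a pair chosen after seeing the data. Leaving out control 1 gave 46 higher genes, control 2 gave 27, control 3 gave 35, mutant 1 gave 38 and mutant 3 gave 43. Lower genes numbered 98 on leaving out control 2, 105 for control 3 and 101 for mutant 1. Of pathway genes, 0 were called in either direction, against 3 higher with library totals alone (Atf3, Cd44 and Cldn4), 2 higher without a low-count filter or with a robust dispersion (Atf3 and Cldn4), 2 higher and 3 lower with DESeq2, 0 to 3 higher and 0 to 1 lower with 1 library left out, and 3 higher and 2 lower without control 1 and mutant 2 (Atf3, Cd44 and Cldn4 higher, Krt19 and Rhbdf1 lower). With 1 library left out, the sign turned for Egfr (-0.02 to 0.28), Hbegf (-0.11 to 0.21) and Btc (-0.07 to 0.24), and for Hbegf (-0.08) without control 1 and mutant 2. None of these 3 was called in any alternative. With the replicate number as a block 1 member was lower, Egf, with a log2 fold change of -0.73 and an edgeR adjusted p of 0.0147, and Erbb3 at -0.65 was not called (0.075). Deviations of same-numbered libraries had correlations of 0.08, 0.03 and -0.07 over the genes compared, so no pairing by number was seen. This check cannot detect pairs that affect only some genes. Erbb4 had no value without control 3, where it did not pass the low-count filter. The cause of the other moves was not tested. Depth limits Erbb4, Hbegf and the neuregulins, which rest on few counts a library.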

Other observations

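Mmp7, a matrix metalloprotease raised in pancreatic metaplasia and able to cut Hbegf, was too low for the test in the report. It had 6, 4 and 6 counts in the mutant libraries, against 1, 0 and 1 counts in the control libraries, without overlap. Without the filter on low counts its log2 fold change was 2.63 ± 0.91 (SE) and it did not pass (edgeR adjusted p = 0.248). Egr2, an immediate early factor of the MAPK response list, had 12, 9 and 8 counts in the mutant libraries, against 1, 6 and 7 counts in the control libraries, and a log2 fold change of 0.92 ± 0.57 without the filter (edgeR adjusted p = 0.641). Both genes were named after their values were seen. Fosl1, a further gene of that list, had 1 count in all 6 libraries together.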
